A study of Mus musculus with 20 samples.

Results

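10 genes of neutrophil and myeloid inflammation were followed in the mouse uterus after a single dose of estrogen or of either of 2 xenoestrogens. The 10 genes were Clec4e, Clec4d, S100a8, S100a9, Il1b, Il1rn, Csf3r, Trem1, Ngp and Camp, out of 27962 distinct gene names on the array. Each was found by its gene name in the scanner files, and where a gene had more than 1 probe the probe with the highest mean log2 signal over all 20 arrays was used. Probes were thus chosen by their signal level alone, but the genes were selected on earlier results of the same arrays, among them the changes from vehicle. Calls and shared directions among these genes therefore describe the arrays and are no independent support. Adult female C57bl6/J mice of 10 weeks or more had their ovaries removed and, after 10 to 14 days, received 1 subcutaneous injection. The injection was 100 µl of sesame oil alone (vehicle, 3 uteri), 250 ng estradiol (E2; 3 uteri at 2 h and 2 at 24 h), 750 µg bisphenol A (BPA; 3 at 2 h and 3 at 24 h) or 750 µg HPTE (3 at 2 h and 3 at 24 h). HPTE is the estrogenic metabolite of the pesticide methoxychlor. Like BPA it carries a pair of para-hydroxyphenyl rings, and the bridge between them is a trichloroethane where BPA has a propane. All mice, vehicle included, lacked ovaries and received oil. The vehicle uteri carry a 24 h label and serve as the controls at both times, so a change at 2 h is also a change against a later collection. Each 1-color array took 500 ng of RNA. The labels say that each uterus was homogenized separately and do not say whether RNA was pooled afterwards or whether the mice of a group were handled on separate days. Each array is called a uterus here on that basis, and if RNA was pooled, n counts pools.

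Neutrophils and macrophages enter and leave the uterus with the ovarian cycle, and estrogen is known to draw leukocytes into this tissue. Clec4e (Mincle) and Clec4d (Mcl) are C-type lectin receptors of myeloid cells, encoded side by side, that sense damaged cells and microbial glycolipids and signal through an ITAM adaptor. Il1b encodes the inflammatory cytokine interleukin-1 beta, and Il1rn its receptor antagonist. Csf3r is the receptor for the growth factor G-CSF, and Trem1 is an activating receptor of neutrophils and monocytes that amplifies inflammation. S100a8 and S100a9 form calprotectin, the most abundant cytosolic protein pair of neutrophils. Ngp and Camp (cathelicidin) are granule proteins made while neutrophils mature in the bone marrow. In whole uteri, more cells of a type and more RNA per cell cannot be told apart.

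Levels are given as scaled intensity, the spot signal of a probe after each array was brought to the same 75th percentile, in arbitrary units. Levels of different probes are not comparable with each other. 7 of the 10 genes were well above background, as the scanner software judged it, on all 20 arrays. Trem1 was so on 15 arrays, Camp on 11 and Ngp on 9. All 10 passed the filter for testing, which asked for such signal on all arrays of 1 group or more. A second probe for Il1rn was above background on no array and a second one for Trem1 on 1 array, and neither was tested. All 9 uterine epithelial markers and all 9 stromal and muscle markers were well above background in every vehicle uterus. Between 72.7% and 81.4% of all probes on an array were well above background.

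Leukocyte marker levels differed between uteri of the same group. The summed scaled intensity of 7 markers that all leukocytes share (Ptprc, Coro1a, Laptm5, Cd52, Cd53, Lcp1 and Arhgdib) lay between 29040 and 33030 in the vehicle uteri. It was 179100, 55660 and 30390 in replicates 1, 2 and 3 of BPA at 2 h. Replicate 1 of that group was the highest of all 20 arrays, also for the sum of 10 macrophage markers (231100 against 35730 to 42710 in vehicle). 8 B cell markers summed to 84020 and 81770 in replicates 1 and 2 of BPA at 2 h and to 10090 to 15540 in vehicle. Uteri of BPA at 24 h had leukocyte sums of 41580 to 51800, and those of HPTE at 2 h of 22430 to 24990. The uteri of E2 at 24 h had the lowest ones, 19610 and 21380. Among the other leukocyte lists, the eosinophil markers Prg2, Ear1, Ear11, Siglec5 and Ccr3 were well above background on all 20 arrays. Il5ra was so on 5 arrays, Prg3 on 4 and Epx on 1. The mast cell markers Cpa3, Mcpt4, Mcpt5, Mcpt6, Kit and Fcer1a were so on all 20 arrays, and Ms4a2 on 1. What part these marker levels had in the members' changes was not tested, and results on BPA at 2 h are given with and without replicate 1.

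**Figure D1:**
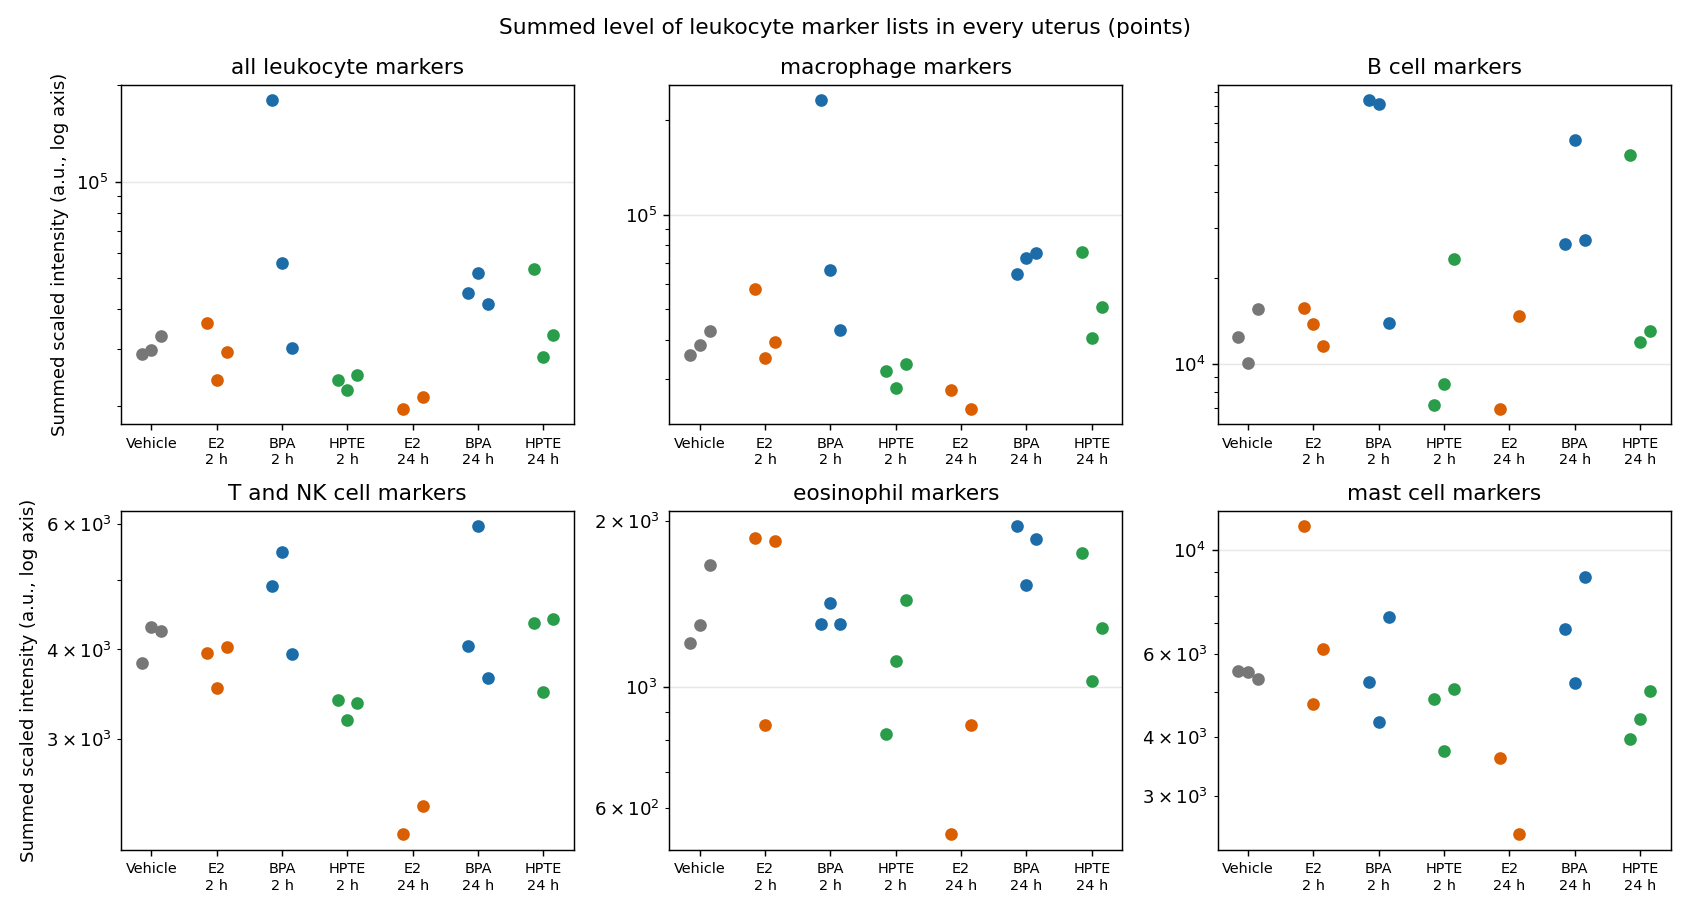
Summed scaled intensity (arbitrary units, log axis) of 6 leukocyte marker lists in each uterus, 1 point per array, by treatment group. Replicate 1 of BPA at 2 h stands alone at 179100 for markers of all leukocytes, and both uteri of E2 at 24 h lie below all 3 vehicle uteri in that panel.

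The 10 genes were also among the most variable of the array between uteri of 1 group. Their pooled within-group SD ran from 0.707 (Csf3r) to 1.76 (Camp) on the log2 scale, against a median of 0.184 over the 32460 tested probes, so that each stood between the 94.4th and the 99.7th percentile. Clec4e, well above background throughout, ranged 68.7-fold over the 20 arrays. Camp reached 172 at its highest and was not well above background at its lowest, so its range has no fold. Camp was well above background on 11 arrays, Ngp on 9 and Trem1 on 15, so the SDs of these 3 genes include dim signals.

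**Figure D2:**
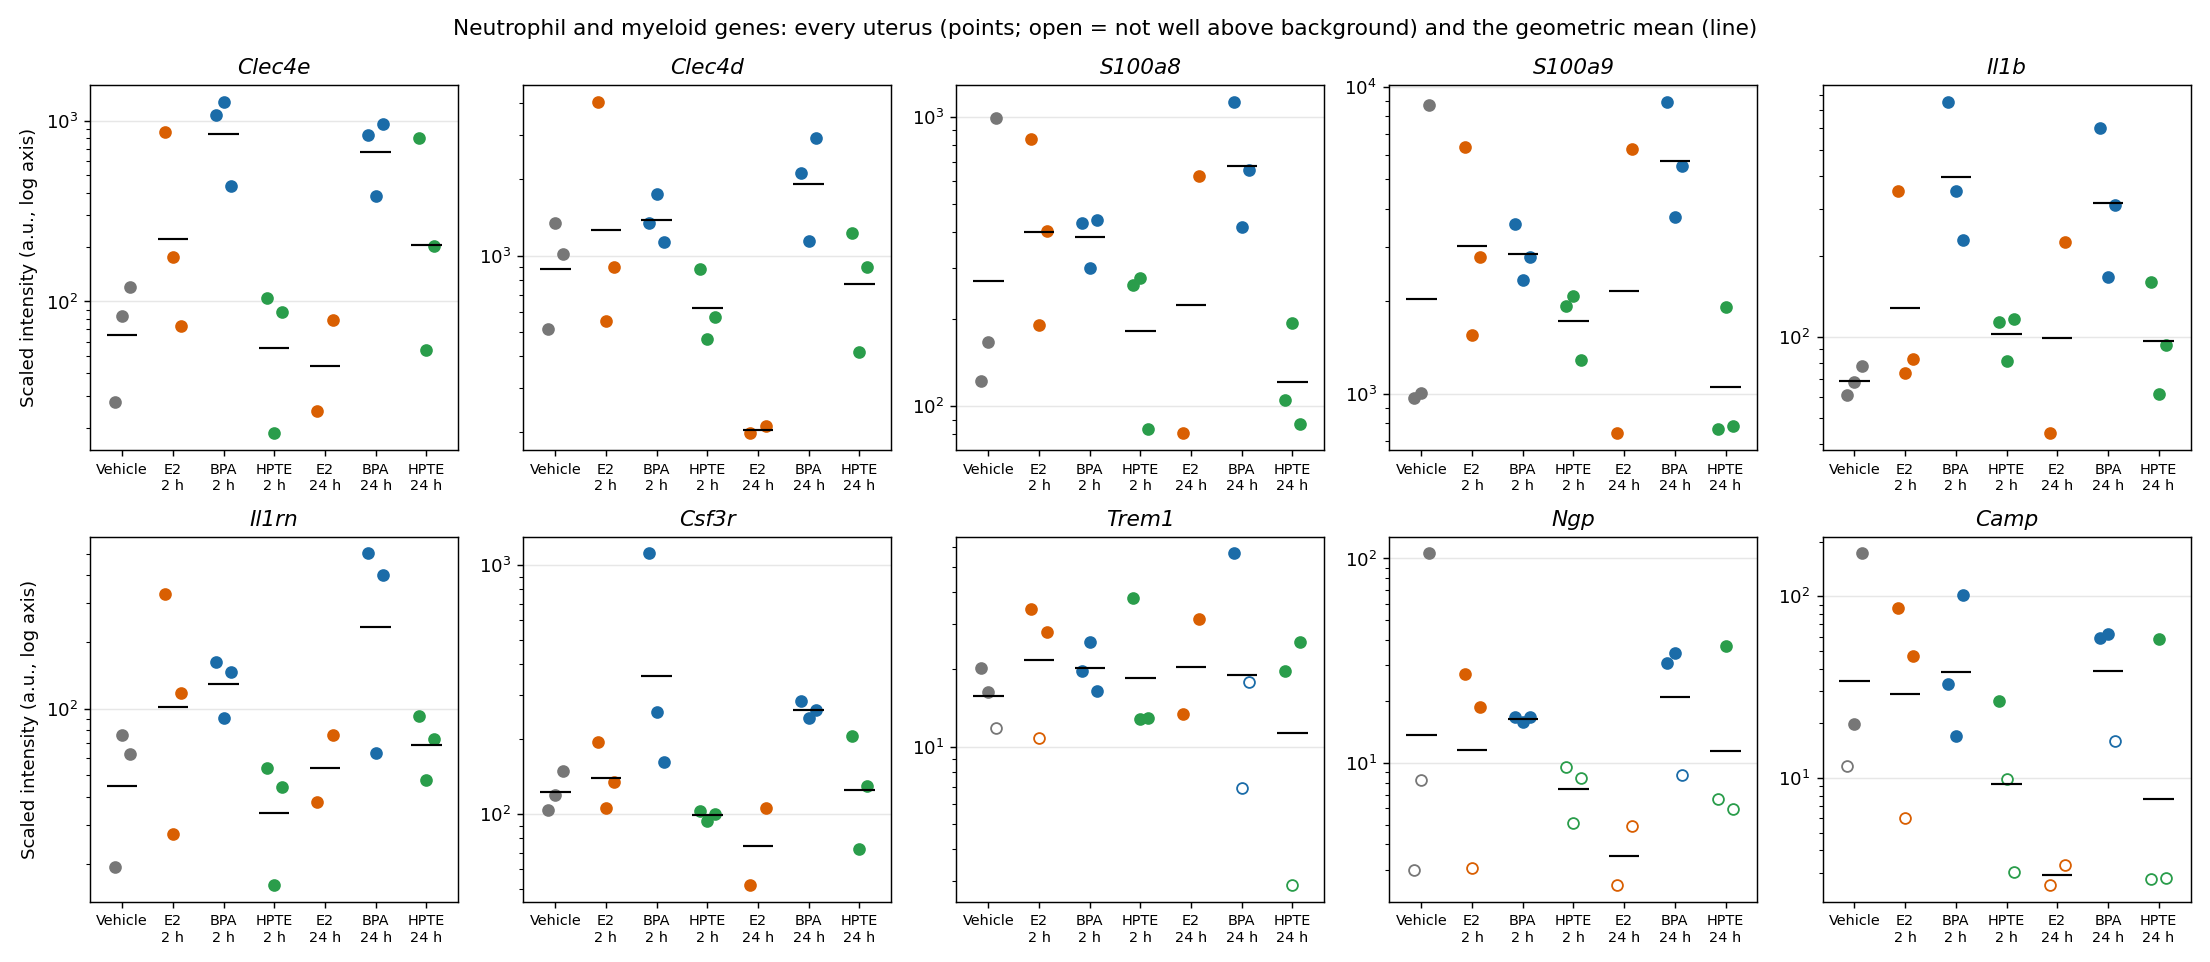
Scaled intensity (arbitrary units, log axis) of the 10 genes in every uterus by treatment group, with the geometric mean of each group as a line and open points where the signal was not well above background. The Clec4e and Il1b points of BPA lie above every vehicle point at both times, and Clec4d is lowest in both uteri of E2 at 24 h.

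The comparison of BPA with vehicle at 2 h describes the early levels of genes that were chosen with such changes known. Clec4e, Il1b and Csf3r rose, and none of the 10 fell, by limma with Benjamini-Hochberg adjustment over all tested probes. The share of all probes called in this comparison was 19.3% higher and 30.2% lower, so 3 of 10 higher is not far from the background. All 10 estimates were above 0, with a median log2 change of 0.574 against -0.0964 over all probes.

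Clec4e had the largest change. Its scaled intensity was 27.7, 82.6 and 120.3 in the vehicle uteri, and 1081, 1278 and 434 after 2 h of BPA. All BPA uteri were thus higher than all vehicle uteri, and the geometric means were 65.0 and 843. The log2 change was 3.70 (SE 1.04, adjusted p = 0.00832), a 13-fold difference. Without BPA replicate 1 it was 3.52 (adjusted p = 0.029).

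Il1b read 61.0, 67.9 and 78.4 in the vehicle uteri, and 755, 352 and 230 after 2 h of BPA. Again the groups did not overlap, and the order of the BPA uteri differed from that of Clec4e. The log2 change was 2.52 (SE 0.682, adjusted p = 0.00654), or 5.72-fold, and 2.05 without replicate 1 (adjusted p = 0.0372).

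Csf3r read 103.7, 119.9 and 149.5 in vehicle and 1117, 258 and 162 in BPA at 2 h. BPA replicate 3 was only just above the highest vehicle uterus, and replicate 1 set most of the mean. The log2 change of 1.55 (SE 0.541, adjusted p = 0.027) became 0.73 without replicate 1 (adjusted p = 0.148), and the call was also lost without vehicle replicate 1 or 2 and where only the 2 groups compared were fitted (adjusted p = 0.131). Of the remaining genes, Il1rn did not overlap between the groups (19.3 to 76.2 in vehicle and 90.8 to 163 in BPA) but did not pass the test (log2 change 1.52, adjusted p = 0.169). The other 6 had estimates between 0.17 (Camp) and 0.64 (Clec4d) and all overlapped. Thus 4 of the 10 genes did not overlap, against 54.9% of all probes.

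3 slides each held a vehicle array, so some BPA uteri could be set against the vehicle uterus on their own slide. Clec4e was higher by 3.97 and 3.71 log2 units in the 2 uteri of BPA at 2 h that allowed this, and Il1b by 1.91 and 3.47. Csf3r was higher by 0.643 and 3.22, the latter in replicate 1. With slide as a fixed block, 4 of the 10 genes were called, Il1rn joining the others, against 45.1% of all probes.

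The promoters of Clec4e and Il1b, which rose together, and those of S100a8 and S100a9, which are neighbors in the genome and moved as a pair, are shown for comparison. They are the 250 bases before the RefSeq start of each gene, in the direction of transcription, on build GRCm38.p6. Clec4e lies at chr6:123289872-123290121 on the minus strand, Il1b at chr2:129371140-129371389 on the minus strand, S100a8 at chr3:90668821-90669070 on the plus strand and S100a9 at chr3:90695722-90695971 on the minus strand. Capitals mark matches to TATAAA on the coding strand, and on either strand to TTGCNNAA (C/EBP), GAGGAAGT (PU.1), TGANTCA (AP-1) and GGGANTTTC (part of an NF-kB site).
Clec4e: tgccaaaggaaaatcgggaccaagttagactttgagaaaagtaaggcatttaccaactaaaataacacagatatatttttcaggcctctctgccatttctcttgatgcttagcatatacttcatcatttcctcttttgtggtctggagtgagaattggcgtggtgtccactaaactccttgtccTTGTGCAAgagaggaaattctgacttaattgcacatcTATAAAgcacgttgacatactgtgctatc
Il1b: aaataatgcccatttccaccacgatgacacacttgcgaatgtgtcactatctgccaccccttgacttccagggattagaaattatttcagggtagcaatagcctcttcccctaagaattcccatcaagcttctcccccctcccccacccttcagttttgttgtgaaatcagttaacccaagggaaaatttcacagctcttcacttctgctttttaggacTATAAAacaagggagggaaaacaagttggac
S100a8: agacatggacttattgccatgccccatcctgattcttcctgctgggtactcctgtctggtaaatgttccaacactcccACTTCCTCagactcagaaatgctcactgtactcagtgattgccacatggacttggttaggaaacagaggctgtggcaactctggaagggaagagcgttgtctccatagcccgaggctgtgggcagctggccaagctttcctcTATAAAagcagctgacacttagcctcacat
S100a9: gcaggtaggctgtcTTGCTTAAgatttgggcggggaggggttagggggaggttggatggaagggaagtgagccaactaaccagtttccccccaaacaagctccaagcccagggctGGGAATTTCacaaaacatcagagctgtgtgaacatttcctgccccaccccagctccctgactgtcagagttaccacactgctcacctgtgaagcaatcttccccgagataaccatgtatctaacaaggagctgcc

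The first of these motifs, the TATA box, began 29 bases before the start of Clec4e, 31 before that of Il1b and 30 before that of S100a8. Of 32817 such windows of the mouse genome, 7.6% held these letters. The C/EBP letters lay in the windows of Clec4e, S100a9 and Ngp (9.57% of all windows) and the NF-kB letters in that of S100a9 (0.94%). The PU.1 letters were in that of S100a8 (2.44%) and the AP-1 letters in 1 of the 3 windows of Il1rn (6.75%). These matches are descriptions of letters and were not tested for binding.

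E2 at 2 h and HPTE at 2 h were compared with vehicle in the same way. None of the 10 genes was called in either comparison by limma, and none had an unadjusted p under 0.05, as 38.4% of all probes did after E2 and 53.8% after HPTE. Over all probes, 11.1% were called higher and 17% lower after E2, and 19.9% higher and 28.2% lower after HPTE. One E2 uterus, replicate 1, was the highest of its group in all 10 genes. Clec4e read 862 in it and 176 and 72.8 in the other E2 uteri, and Il1b read 350 against 73.8 and 82.8. Clec4d was at 4065 in that uterus, its highest level on any array. In HPTE uteri at 2 h, Clec4e read 104.9, 18.6 and 87.9, which overlaps the vehicle levels (27.7 to 120.3). Il1b read 114.2, 81.2 and 117.3, above all vehicle uteri, with a log2 change of 0.58 (adjusted p = 0.522). Csf3r lay just below vehicle (93.8 to 103.0), with a log2 change of -0.31 (adjusted p = 0.674). These 2 of the 10 genes did not overlap between HPTE and vehicle, against 58.3% of all probes.

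At 24 h, E2 had lower Clec4d and Camp than vehicle by the same test, and none of the 10 genes was higher. In this comparison 26.3% of all probes were called higher and 37.6% lower, so 2 of 10 lower is below the background. The groups did not overlap in 2 of the 10 genes, against 75% of all probes. Clec4d read 198 and 211 in the E2 uteri and 511, 1341 and 1012 in vehicle, without overlap. Its log2 change was -2.11 (SE 0.688, adjusted p = 0.014), a 4.33-fold fall. It was lost without vehicle replicate 2 or without either E2 uterus, where the adjusted p reached 0.0648. On the slide that held both, the E2 uterus was lower than the vehicle uterus by 2.26 log2 units (-2.26). The leukocyte marker sums of these uteri were lower than in vehicle too, as given above.

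Camp was not well above background in either E2 uterus at 24 h (2.57 and 3.31), and was so in 2 of the 3 vehicle uteri (11.6, 19.9 and 172). It was at least 2.47-fold lower than in vehicle, taking for each dim array the lowest signal that was well above background there (adjusted p = 0.0498). Without vehicle replicate 3 the adjusted p was 0.19. Ngp was also not above background in either E2 uterus, and its difference from vehicle did not pass (adjusted p = 0.182).

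The 2 uteri of E2 at 24 h differed widely from each other in the calprotectin genes. S100a9 read 742 in one and 6253 in the other, S100a8 80.6 and 625, and Il1b 43.8 and 226. Clec4d was nearly the same in both. With 2 uteri in this group, changes of these genes were not detectable at this spread (log2 change 0.08 for S100a9, SE 0.941).

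E2 at 24 h was also compared with E2 at 2 h, and Clec4d fell while the other 9 genes did not pass. The call share over all probes was 25.9% higher and 30.1% lower. Clec4d went from 4065, 553 and 898 at 2 h to 198 and 211, a log2 change of -2.63 (SE 0.688, adjusted p = 0.00423). It was past the threshold with any 1 of the 20 arrays left out, and its adjusted p was 0.0564 where only these 2 groups were fitted. Camp did not overlap between the times (at least 2.09-fold lower, adjusted p = 0.0735). In all, 2 of the 10 genes did not overlap, against 68.9% of all probes.

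Clec4e was already known to be high in BPA at 24 h when the genes were put together, so this comparison is given as a description. Clec4e read 837, 382 and 957, Il1b 599, 167 and 311, and Csf3r 285, 243 and 263. In all 3 genes every BPA uterus was above every vehicle uterus. These 3 of the 10 genes did not overlap, against 39.6% of all probes. The log2 changes were 3.37 (SE 1.04), 2.19 (SE 0.682) and 1.10 (SE 0.541). All 10 genes had positive estimates, with a median of 1.21 and a range from 0.19 (Camp) to 3.37. Il1rn (502, 63.4 and 402) and Clec4d (2113, 1142 and 2910) overlapped with vehicle, in each case through replicate 2. Clec4e and Il1b were past the threshold, where 5.09% of all probes were called higher and 8.03% lower, and nothing is read from that count. With slide as a fixed block neither was (adjusted p = 0.105 and 0.144), and with single arrays left out Clec4e was lost in 11 of 20 fits and Il1b in 12. Of the 10 genes, none was called between 24 h and 2 h of BPA by limma, and none had an unadjusted p under 0.05 (53.8% of all probes had one, and 28.2% were called higher and 20.2% lower). The Clec4e difference between those times was -0.32 with a 95% interval from -2.54 to 1.90, so the data do not show whether its level held or moved.

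HPTE at 24 h had no called gene among the 10 against vehicle by limma, and none at an unadjusted p under 0.05, with 14.9% of all probes called higher and 19.1% lower, and 43.8% at an unadjusted p under 0.05. Clec4e read 801, 53.6 and 202 in the 3 uteri. The highest, replicate 1, also had the highest leukocyte sum of the group (53290, against 28480 and 33230) and a B cell sum of 54130. S100a9 in that same uterus was 768, below all vehicle uteri, and replicate 2 had the highest S100a9 (1919), Ngp (37.3) and Camp (58.0) of the group. Lectin receptor and granule transcripts were thus highest in different uteri of this group, with Ngp and Camp each well above background in 1 of the 3. In E2 at 2 h, by contrast, replicate 1 was the highest in all 10 genes. Between 24 h and 2 h of HPTE no gene of the 10 was called, and none had an unadjusted p under 0.05 (58.5% of all probes had one, and 29.5% were called higher and 24.6% lower).

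**Figure D3:**
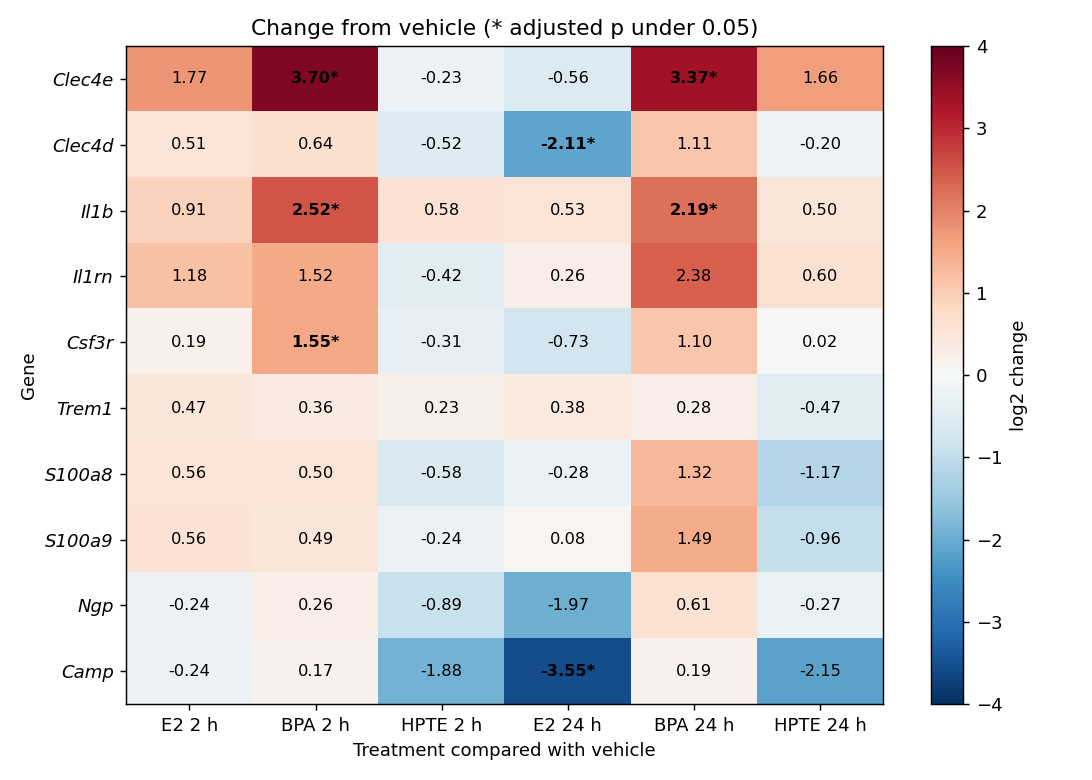
Log2 change from vehicle for the 10 genes (rows) in the 6 treated groups (columns), with an asterisk where the adjusted p was under 0.05. Both BPA columns are positive throughout, from 0.17 for Camp to 3.70 for Clec4e at 2 h and from 0.19 to 3.37 at 24 h.

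BPA and HPTE were given at the same dose and collected at the same times, so their uteri could be compared directly. The genes were chosen on these arrays, so the values at 2 h are a description. At 2 h none of the 10 genes passed in limma. At that time all 10 estimates were lower in HPTE, with a median log2 difference of -1.51 against 0.0295 over all probes, and 8 of the 10 genes did not overlap between the compounds. Of all probes, 18.7% did not overlap, 8.57% with HPTE lower. The share called was 0.24% higher in HPTE and 0.197% lower. 4 of the 10 genes and 16.2% of all probes had an unadjusted p under 0.05. Clec4e differed by -3.92 (95% interval from -6.14 to -1.70, adjusted p = 0.106), Il1b by -1.94 (from -3.39 to -0.48, adjusted p = 0.174) and Il1rn by -1.94 (from -3.82 to -0.06, adjusted p = 0.293). Csf3r differed by -1.86 (from -3.02 to -0.71, adjusted p = 0.124). The weakest difference was in Trem1, -0.14 (from -1.88 to 1.61), and the 2 compounds overlapped in it. For Ngp, no HPTE uterus at 2 h was well above background, and it was at least 1.49-fold lower than in BPA (adjusted p = 0.664). Without BPA replicate 1 the Clec4e difference was -3.74 and the median of the 10 genes -1.15.

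The comparison at 24 h uses the BPA uteri in which Clec4e was already known to be high, so it too is a description, with no test. All 10 estimates were lower in HPTE, with a median of -1.71 against -0.0257 over all probes, and 4 of the 10 genes did not overlap, against 35.9% of all probes (17.8% with HPTE lower). Over the array 2.99% of probes were called higher and 1.09% lower. S100a8 read 1132, 417 and 658 in BPA and 105.5, 194.5 and 87.0 in HPTE, a log2 difference of -2.48 (SE 0.844). S100a9 read 8937, 3774 and 5527 in BPA and 768, 1919 and 786 in HPTE, a difference of -2.44 (SE 0.842). Il1b differed by -1.70 (SE 0.682) and Csf3r by -1.08 (SE 0.541). The uteri of both compounds overlapped in Clec4e through HPTE replicate 1, and its difference was -1.72 (SE 1.04). Leukocyte marker sums moved in the same direction, with every HPTE uterus below every BPA uterus at 2 h, while at 24 h HPTE replicate 1 was above all of the BPA uteri.

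**Figure D4:**
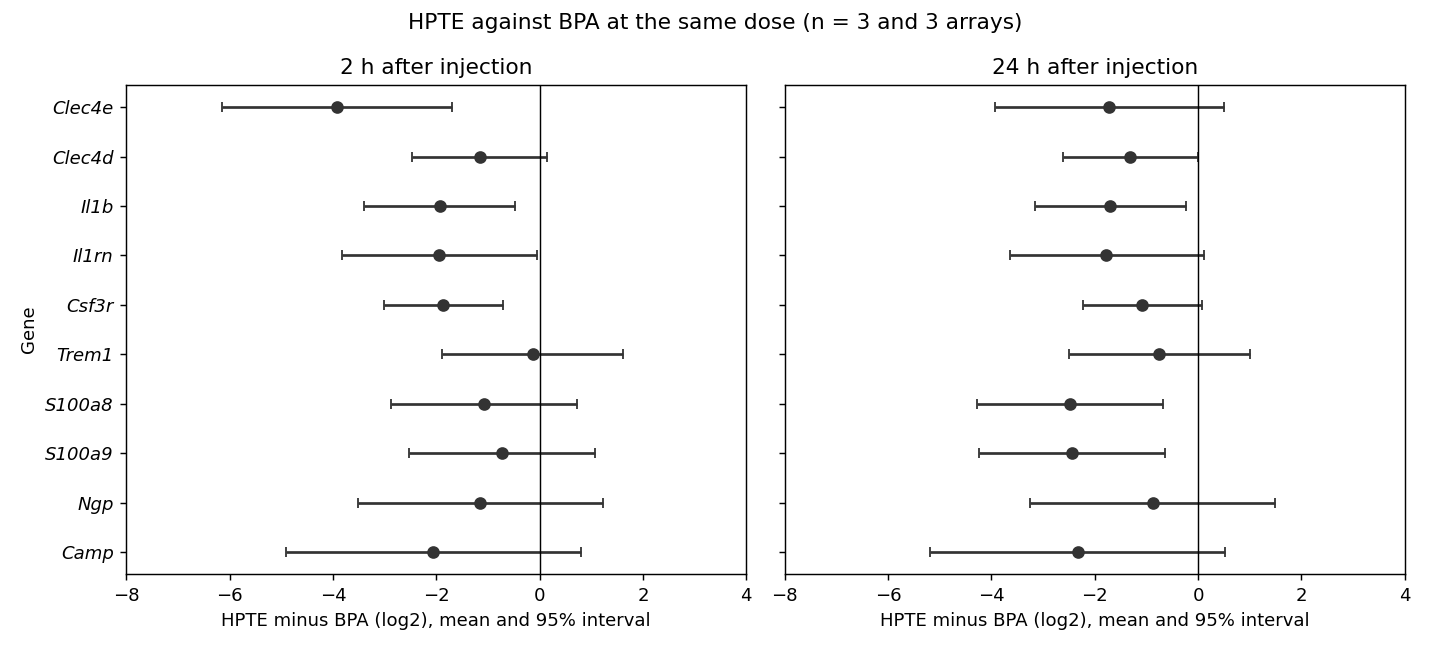
HPTE minus BPA on the log2 scale for each of the 10 genes at 2 h (left) and 24 h (right), as the mean difference with its 95% interval, from 3 uteri of each compound. All 20 points lie below 0, and at 2 h the intervals of Clec4e, Il1b, Il1rn and Csf3r do not reach 0. The genes were chosen on these arrays, so the intervals at both times show the spread and are no independent test.

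The change from 2 to 24 h was also compared between treatments. Between HPTE and BPA it differed for none of the 10 genes by limma, and none had an unadjusted p under 0.05 (14.5% of all probes had one, and 0.0462% were called higher and 0.04% lower). E2 was given at a far smaller dose, so the following sets treatments as given side by side. Clec4d changed by -2.63 in E2, by 0.47 in BPA and by 0.32 in HPTE. Its time course differed from that of E2 by 3.10 in BPA (adjusted p = 0.011) and by 2.95 in HPTE (adjusted p = 0.0165). Clec4e changed by -2.34 in E2 and by 1.89 in HPTE, a difference of 4.22 (adjusted p = 0.0375). The probes called over the array were 28.9% higher and 22% lower for BPA against E2, and 25.4% and 20.7% for HPTE against E2.

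The groups were also put in order of level for each gene. By geometric mean, BPA at 2 h and BPA at 24 h were the 2 highest groups for Clec4e (843 and 674), Clec4d (1384 and 1915), Il1b (394 and 315), Il1rn (129 and 234) and Csf3r (360 and 263). The same held for Ngp (16.47 and 20.97) and Camp (38.45 and 38.84), with vehicle next at 13.78 and 34.16. BPA at 24 h was also the highest group for S100a8 (677.5) and S100a9 (5713), with E2 at 2 h second. E2 at 24 h was lowest for Clec4e (44.1), Clec4d (204.5), Csf3r (74.3), Ngp (3.52) and Camp (2.92). HPTE at 24 h was lowest for S100a8 (121.3), S100a9 (1050) and Trem1 (11.3). Neighbors in these orders mostly overlapped, as BPA at 2 h and 24 h did in all 10 genes except S100a9, where each 24 h uterus exceeded all 2 h ones. Of all probes, 57.6% did not overlap between these 2 groups. Trem1 hardly separated the groups, with means from 11.3 to 21.8.

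Over the 20 arrays, which share groups and slides, the log2 levels of some pairs of genes were far more closely correlated than those of others. S100a8 and S100a9 were almost parallel (Pearson r = 0.972, and 0.964 after each group's mean was removed). Ngp and Camp, also on 1 chromosome, had r = 0.845 (0.843 within groups), although Ngp was above background on 9 arrays and Camp on 11. Clec4e ran with Il1b (0.842), Csf3r (0.808) and Clec4d (0.80), and far less with Camp (0.279) and S100a9 (0.412). Within groups, Clec4e and Camp had r = -0.15. Vehicle replicate 3 stood apart in the calprotectin and granule genes. It had S100a9 at 8725 against 969 and 1004 in the other vehicle uteri, S100a8 at 993 against 122 and 166, Ngp at 106.0 against 2.99 and 8.25, and Camp at 172 against 11.6 and 19.9. Its Il1b (78.4), Csf3r (149.5) and leukocyte sum (33030) were by contrast the highest of the vehicle group by only a little. Clec4e was highest there too, at 120.3 against 27.7 and 82.58, while Clec4d, Il1rn and Trem1 were not. Without this uterus the change of S100a9 from vehicle to BPA at 24 h was 2.53 in place of 1.49, and that at 2 h 1.53 in place of 0.49.

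**Figure D5:**
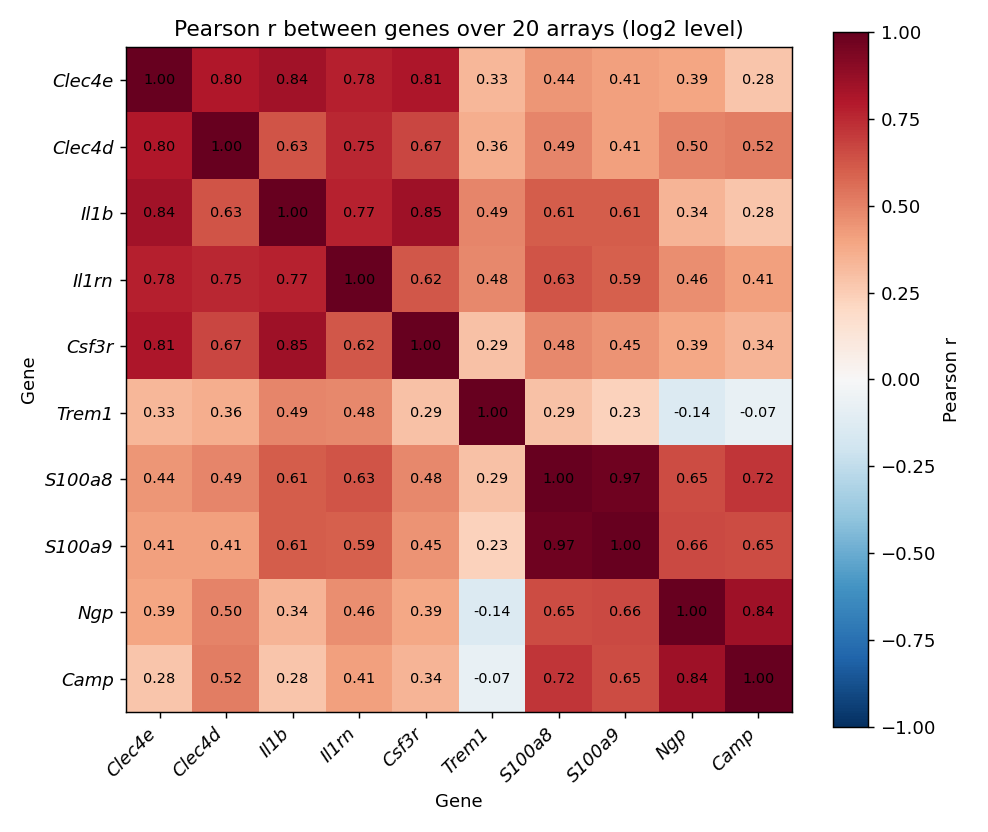
Pearson correlation of log2 levels between each pair of the 10 genes over 20 arrays, from the lectin and cytokine genes (top left) to calprotectin and granule genes (bottom right). The pair S100a8 and S100a9 reaches 0.97, while Trem1 stays at or below 0.49 with every other gene.

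For each of the 10 genes the most similar other named gene over the 20 arrays was sought. Clec4e was closest to Clec4n (r = 0.927), the gene of another C-type lectin receptor of this family. Clec4d was closest to F10 (0.946), the gene of coagulation factor X, Il1b to Cd300lf (0.915), an inhibitory receptor of myeloid cells, and Il1rn to Ccl9 (0.959), a chemokine. Csf3r was closest to Ptprc (0.974), which encodes CD45 of all leukocytes, and Trem1 to Cd300lb (0.826), an activating myeloid receptor. S100a8 (0.793), S100a9 (0.797) and Ngp (0.796) shared Mmp8, neutrophil collagenase, as their closest gene. Camp was closest to the transcription factor gene Tcfeb (0.76). Mmp8 was well above background on 10 of the 20 arrays, Ngp on 9, Camp on 11 and Trem1 on 15, so these correlations include dim signals.

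Other myeloid genes were read from 5 lists. After 2 h of BPA, 6 of 10 inflammatory cytokines and neutrophil chemokines were called higher and none lower, where 19.3% of all probes were higher and 30.2% lower (median log2 change 0.98, against -0.0964 over all probes). Il6 was not well above background in any vehicle uterus and was at least 3.01-fold higher in BPA (adjusted p = 7.81e-06). The macrophage chemokine gene Ccl3 rose by 2.51 (adjusted p = 0.00528) and the neutrophil chemokine gene Cxcl1 by 2.17 (adjusted p = 0.000168). Cxcl5 was at 0.88 and did not pass. Without BPA replicate 1, 5 of the 10 were called, with Il6 at least 2.81-fold higher and with Cxcl1 at 2.24 and Ccl3 at 1.57, each past the threshold.

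Of 18 neutrophil surface and signaling genes, 4 were higher and none lower after 2 h of BPA, near the 19.3% of all probes called higher, among them the formyl peptide receptor genes Fpr1 (3.99, adjusted p = 0.0138) and Fpr2 (3.56, adjusted p = 0.0147). Without replicate 1, 1 of the 18 was called, with Fpr1 at 2.52 (adjusted p = 0.0835) and Fpr2 at 2.13 (adjusted p = 0.0871). Pattern recognition receptors and ITAM adaptors had 4 of 15 higher and 1 lower, and 1 higher and 2 lower without replicate 1. The kinase gene Syk, which acts downstream of Clec4e, rose by 1.72 (0.95 without replicate 1, adjusted p = 0.0262). Tlr4, the endotoxin receptor gene, fell (adjusted p = 0.000286), by 0.92 without replicate 1 (adjusted p = 0.00197). The all-leukocyte markers followed the same course, with 5 of 7 higher (median 1.02), and 0 of 7 without replicate 1 by limma (median 0.36), where 0 had an unadjusted p under 0.05.

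Among granule protein genes, 0 of 11 were higher and 1 was lower after 2 h of BPA (median -0.03). Without replicate 1 none was called by limma (median 0.03), and 2 had an unadjusted p under 0.05. After 24 h of E2, 5 of 11 were higher and 2 lower, where 26.3% of all probes were higher and 37.6% lower, with a median of 1.49 against -0.151 over all probes. The genes named from this list were chosen by their mean absolute change over all comparisons with vehicle, not by this comparison. Of these, Lcn2 rose by 4.36 (adjusted p = 5.16e-10) and Ltf (lactoferrin) by 2.68 (adjusted p = 0.000244). Hp (haptoglobin) rose by 1.89 (adjusted p = 0.00781) and Mpo (myeloperoxidase) by 1.61 (adjusted p = 0.00921). Among the list's other genes, Pglyrp1 went from a mean scaled intensity of 294 in vehicle to 1560 after 24 h of E2. Mmp9 went from 624 to 151. Lcn2 and Ltf are made by uterine epithelium as well as by neutrophils. Neutrophil surface genes had 3 of 18 higher and 5 lower at this time, both below those shares. Cxcl5, a neutrophil chemokine gene that epithelium also makes, was well above background in 2 of the 3 vehicle uteri and rose by 4.81 (adjusted p = 0.000355), and Cxcl1 by 1.24 (adjusted p = 0.0136).

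In the IL-1 system, the decoy receptor gene Il1r2 rose in 4 of the 6 comparisons with vehicle. Its changes were 0.78 in E2 at 2 h, 1.65 in BPA at 2 h, 2.00 in HPTE at 2 h and 1.70 in E2 at 24 h, with adjusted p from 3.08e-05 to 0.0493. Of the 7 tested genes of that list, 1 was higher and 3 were lower after 2 h of BPA (1 and 1 without replicate 1). Of all probes, 19.3% were higher and 30.2% lower there. After 24 h of E2, 2 of the 7 were higher and 3 lower, against 26.3% and 37.6% of all probes. These counts are not far from the background. Between HPTE and BPA at 2 h, 1 of the 10 cytokines and chemokines and none of the other 4 lists had a gene called by limma. An unadjusted p under 0.05 was reached by 16.2% of all probes, 7 of 10 cytokines and chemokines, 13 of 15 pattern recognition genes, 9 of 18 neutrophil surface genes, 2 of 11 granule protein genes and 2 of 7 genes of the IL-1 system. The medians were -1.32 for pattern recognition genes and -1.01 for cytokines and chemokines. Without BPA replicate 1 they were -0.84 and -0.76.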

How the data were processed

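Gene expression was measured on 20 single-color Agilent arrays of mouse uterus in 7 groups. The deposited scanner files, made by the authors with Agilent Feature Extraction 9.5, hold the intensity of each spot, of which the background-corrected processed signal was used. The deposited series table holds the same processed intensity values, with no scaling between arrays. The deposited flag columns (other) mark spots that are well above background, saturated or outliers. Gene names and probe positions are those of the array design.

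Outlier-flagged spots (46 to 134 per array) were left out, spots of 1 probe were averaged, and log2 processed signals were centered on each array's 75th percentile (1320 to 2046 units). A probe was tested if all arrays of 1 group or more showed it well above background, with at most 2 missing arrays, which kept 32460 of 41174 probes. One model of the 7 group means was fitted with limma 3.58.1 in R 4.3.3, giving 14 comparisons with moderated tests. P-values were adjusted by Benjamini-Hochberg over all tested probes in each comparison, and called means an adjusted p under 0.05. Intervals are 95% intervals from the same fit. The code was tested on simulated data with known changes. Each value is 1 array, and the number of arrays limits the precision. Nothing states whether uteri of a group came from separate experiments, so p-values measure only the spread between these samples.

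The 10 genes and all gene lists were chosen with earlier results of these data known. The genes named are all 10 members, for each the most similar other gene with a symbol, and from each list at most 4 genes, those with the largest mean absolute change over the 6 comparisons with vehicle among genes called at least once. Lists of 5 myeloid pathways and 10 kinds of marker were read, and 1 further list is not reported here. A gene dim in a group has only a bound there, given as at least N-fold. 16 alternatives were planned, among them normexp background correction (offset 50) with quantile normalization, scaling to 8 spike-in probes, other filters, slide or replicate number as a block, and leaving out each array. List counts without BPA replicate 1 at 2 h were added after seeing the data. Promoter sequences came from RefSeq (GRCm38.p6), and no genome was used. Labels give treatment and time under each other's names, and the values were read for what they say.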

Additional observations from a re-analysis of the deposited data

Results flagged for a closer look

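Clec4d and Clec4e are listed because their change between 2 and 24 h differed between treatments by the interaction term of the limma model. Such calls were common over the array, at 50.9% of all probes for BPA against E2 and 46.1% for HPTE against E2. Of the 10 genes, 1 and 2 were called, which is below those shares. For Clec4d the change in BPA exceeded that in E2 by 3.10 (SE 0.923, adjusted p = 0.011), and that in HPTE exceeded E2 by 2.95 (SE 0.923, adjusted p = 0.0165). Both of these were past the threshold with any 1 of the 20 arrays left out, and the second was not with spike-in scaling (2.29, adjusted p = 0.0803). For Clec4e the change in HPTE exceeded that in E2 by 4.22 (SE 1.56, adjusted p = 0.0375), and the adjusted p reached 0.154 when single arrays were left out, among them HPTE at 24 h replicate 1, the uterus with a Clec4e level of 801. E2 was given at 250 ng and the xenoestrogens at 750 µg, and dose cannot be told apart from compound here. The leukocyte marker sums fell in E2 at 24 h (19610 and 21380) relative to E2 at 2 h (24110 to 36340) and rose in HPTE (28480 to 53290 at 24 h, 22430 to 24990 at 2 h), and their part in these differences was not tested.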

How the results depend on the processing

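Of 4718 changes of single genes recomputed under 15 other settings, 4620 kept their side of the threshold, 73 lost a call, 25 gained one and no called change turned its sign. Most of the 4620 were not called as reported and had no call to lose, so that number does not measure how stable the calls were. The Camp call in E2 at 24 h against vehicle was lost in 12 of 20 fits with 1 array left out. Among these were the fits without vehicle replicate 2 or 3. It was also lost without any 1 of the BPA uteri at 24 h, which are not part of that comparison. The 2 lower probes of Il1rn and Trem1 did not pass the filter, so the alternative that uses them gave no value. Spike-in scaling shifted the median over all probes most for HPTE against E2 over time, where it was -0.568 in place of 0.085. The number of genes called in E2 at 24 h against vehicle, 2 as reported, was 1 (Clec4d) with normexp and quantile normalization, quantile normalization, spike-in scaling, no filter, probes bright on all arrays, array weights and slide as a fixed block. In BPA at 24 h against vehicle, 2 as reported, it was 0 with no scaling, spike-in scaling, no filter, slide as a fixed block and without the slide scanned on a later day, and 4 with array weights. For HPTE against E2 over time, 2 as reported, it was 1 with normexp, quantile normalization, no scaling, array weights or only the groups compared, and 0 with spike-in scaling. For E2 at 24 h against 2 h, 1 as reported, it was 0 with only the groups compared, 3 with slide as a fixed block and 2 without the later slide. Where none was reported, 1 was called in HPTE at 2 h with only the groups compared (Il1b), and in HPTE at 24 h against 2 h with the slide block (S100a9, lower) or without the later slide (Clec4e, higher). With array weights 1 gene (Csf3r) was lower in HPTE than in BPA at 2 h and 4 (S100a8, S100a9, Il1b and Csf3r) at 24 h, where 13.9% of all probes were called. The cause of these shifts was not tested.

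With single arrays left out, the number called ranged from 0 to 3 in E2 at 24 h against vehicle, with 0 without vehicle replicate 2 or either E2 uterus. It ranged from 0 to 2 in BPA at 24 h against vehicle, with 0 without vehicle replicate 1 or 2, BPA replicate 2 at 2 h, BPA replicate 1 or 3 at 24 h, HPTE replicate 1 or 3 at 2 h or HPTE replicate 3 at 24 h, and from 0 to 1 in HPTE at 24 h against vehicle (Camp, lower, without HPTE replicate 2 at 24 h). It ranged from 0 to 1 in HPTE against BPA at 2 h (Csf3r without BPA replicate 3), from 1 to 2 in E2 at 24 h against 2 h, from 0 to 1 in HPTE at 24 h against 2 h (Clec4e without replicate 2 at 24 h) and from 1 to 2 for HPTE against E2 over time. In BPA at 2 h it stayed at 2 or 3, and Clec4e and Il1b were past the threshold each time. Leaving out an E2 uterus at 24 h leaves 1, which is then assumed to vary like the other groups.

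Replicate numbers did not pair the uteri. Same-numbered arrays of different groups had deviations that correlated above 0.1 in 12 of 57 pairs (median -0.0486), and 5 of 20 arrays correlated best with their own number. Arrays of different groups on the same slide did so in 13 of 25 pairs (median 0.108), and those on different slides in 36 of 146 (median -0.0325). The main model has no slide term. With the replicate block the count in E2 at 24 h against vehicle was 1 in place of 2, and it changed no other count.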
